A study of Mus musculus with 7 samples.

Results

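Cathepsins are proteases of the lysosome, the acid compartment in which a cell breaks down proteins delivered by autophagy, endocytosis or phagocytosis. They are made as inactive precursors, carried from the Golgi by mannose 6-phosphate receptors and activated by cleavage at low pH, and they are most abundant in phagocytes such as macrophages, although every cell that runs autophagy uses them. The 10 members described here were taken by gene symbol from the 23930 genes of the deposited table and fall into 4 catalytic roles. They are the aspartic endopeptidase Ctsd, the cysteine endopeptidases Ctsf, Ctsk, Ctsl and Ctss, the cysteine exopeptidases Ctsb, Ctsc, Ctsh and Ctsz, and the serine carboxypeptidase Ctsa. All 10 members are in the table, each measured by a single amplicon, and all 10 have a mean above 1 RPM (reads per 1000000 assigned reads).

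Bulk RNA was measured in 3 libraries of normocapnia, numbered NC1 to NC3, and 4 of hypercapnia, numbered HC1 to HC4. All mice carried an inducible Pax7-GFP reporter, a Pax7-driven Cre that switches on GFP in satellite cells (the stem cells of muscle) and their progeny once tamoxifen is given. The labels name the strain as C57BL/6 for NC1, and the number after the stroke goes up by 1 with each further sample, while the growth protocol names C57/B6 for all. All were given tamoxifen from 12 weeks of age, during the first 2 of 4 weeks in room air or in a chamber with 10% CO2, and were collected at 16 weeks. According to the methods, hind limb muscles of both groups were injured with cardiotoxin 3 days before collection, whereas the labels mention no injury and the title of the deposited table names 40 hours. The cells were sorted by flow cytometry for GFP, and whether a library holds 1 mouse or a pool is given in none of the sources used, and p-values therefore measure the spread between these libraries. The comparison of the 2 groups addresses how chronic high CO2 alters the cells that repair muscle, and cathepsins bear on the part of that question that concerns autophagy, since they digest what it delivers.

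Libraries held 14527445 to 23388710 reads, so that a single read is worth 0.0428 to 0.0688 RPM. The label of sorted Pax7 cells was not borne out evenly by the markers: Pax7 ran from 4.34 to 268 RPM in normocapnia and from 20.1 to 79.5 RPM in hypercapnia, and the summed level of 10 satellite cell genes was 604 to 3463 RPM in normocapnia and 779 to 1552 RPM in hypercapnia. The most abundant of these were Sdc4, at 441 to 781 RPM in normocapnia and 429 to 450 RPM in hypercapnia (log2 fold change -0.51, SE 0.21), and Des, at 35.9 to 1193 RPM and 115 to 382 RPM (0.25, SE 1.28), and 0 of the 10 were called. Sdc4 alone held 723, 781 and 441 RPM of sums of 3463, 1000 and 604 RPM in NC1 to NC3. In HC1 to HC4 it held 441, 429, 450 and 445 RPM of sums of 807, 779, 1552 and 1319 RPM. The summed level of 14 macrophage genes was 13657 to 37626 RPM in normocapnia and 21542 to 26783 RPM in hypercapnia. NC1 had the highest satellite cell sum and the lowest macrophage sum of the 7 libraries and NC3 the reverse. The macrophage sum was mostly Lyz2, which held 29108 of the 37626 RPM in NC3. By single macrophage genes, NC3 was the highest library for Lyz2 and Tyrobp and the lowest for Adgre1, Aif1, C1qb, C1qc and Cd14. HC1 and HC2 were close to each other, as were HC3 and HC4, with a chi-square per degree of freedom of 22.5 and 26.0 over genes against 98.5 to 475.5 for all other pairs of libraries. Both values are above sampling noise and all 4 were kept as separate samples, but the spread within hypercapnia rests on 2 close pairs. In bulk samples of this kind, fewer cells of a type and less RNA per cell cannot be told apart.

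Of the 10 members, 2 were higher in hypercapnia and the other 8 did not pass the test. Ctsd rose 3.96-fold and Ctsb 2.81-fold on the log2(RPM + 1) scale, both with every hypercapnia library above every normocapnia library. None of the 10 members was called lower, and the groups overlapped for the other 8. Calls follow the thresholds of the study, an unadjusted p under 0.05 and a fold above 1.5 in either direction, and were made with limma, which steadies the spread of each gene with that of all genes. Over all 23930 genes, 1.43% were called higher and 1.14% lower, and among the 12504 genes that averaged 1 RPM or more the shares were 2.66% and 2.1%. Groups did not overlap in 4.09% of those genes with hypercapnia higher and in 3.63% with hypercapnia lower. After Benjamini-Hochberg adjustment over all genes, 0 members passed 0.05 in limma (2 at an unadjusted p under 0.05) and 0 in edgeR, while DESeq2 passed 1, Ctsd, with an adjusted p of 0.0395. DESeq2 gave an adjusted p under 0.05 with hypercapnia higher to 0.138% of the 13028 genes for which it reports one, and over all alternatives the adjusted p of Ctsd ran from 0.0395 to 0.961. The median log2 fold change of the members was 0.34, with 7 above 0 and 3 below, against 0.02 for all genes and 0.16 for genes at 1 RPM or more. The last value moved with the scaling and with single libraries. It was 0.04 after median-of-ratios scaling and -0.01 once quantiles were equalized, both of which centre the bulk of genes by construction, and 0.37 without NC1 and -0.07 without NC3.

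**Figure D1:**
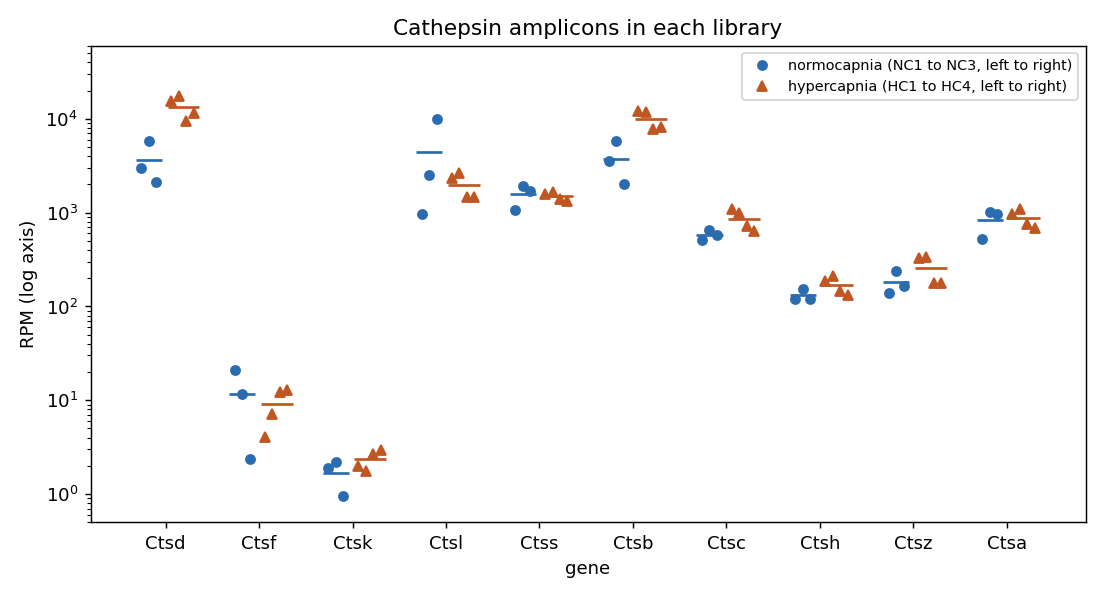
RPM of each cathepsin amplicon in the 7 libraries on a log axis, with circles for normocapnia, triangles for hypercapnia and lines at the arithmetic group means. Ctsd and Ctsb are the members whose groups do not overlap, and the highest Ctsl value is that of NC3 at 9997 RPM. Levels of different genes are not comparable, since each rests on its own amplicon.

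The sequences in front of the members' start sites are shown before the values. Lysosomal genes are known to carry E-box elements bound by TFEB and its relatives TFE3 and MITF, the factors that mTOR holds in the cytoplasm, and the core of that element is CACGTG, which reads the same on both strands. It was searched in the RefSeq windows of the build GRCm38.p6, which span 250 bases before to 50 bases after a start. Windows were found for 8 of the 10 members, 9 windows in all, and Ctsb and Ctsh have no entry. The core was in 4 of the 9 windows, against 7.15% of all 32851 windows and 9.49% of those for genes at 1 RPM or more. The longer forms TCACGTG and CACGTGA, which overlap the core, were in 2 of the 9 windows, those of Ctsd and Ctsa, against 3.77% of all. Among windows for genes at 1 RPM or more, the longer forms were in 5.64%. A match is a description of these letters, and the windows of Ctsc, Ctsk, Ctss and Ctsz hold none. The stretches below end at or before the base in front of the start and have the core in capitals. They are shown because they set the member with the largest difference, Ctsd, beside members with the same letters that were not called.
Ctsd, minus strand, chr7:142387828-142388077: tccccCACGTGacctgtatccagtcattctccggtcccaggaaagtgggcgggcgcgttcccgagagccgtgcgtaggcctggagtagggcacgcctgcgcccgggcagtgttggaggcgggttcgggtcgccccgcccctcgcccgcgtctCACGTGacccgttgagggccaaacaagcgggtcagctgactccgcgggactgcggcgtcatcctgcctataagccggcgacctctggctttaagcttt
Ctsa, plus strand, chr2:164833713-164833772: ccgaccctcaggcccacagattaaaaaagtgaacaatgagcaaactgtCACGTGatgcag
Ctsl, minus strand, chr13:64370711-64370770: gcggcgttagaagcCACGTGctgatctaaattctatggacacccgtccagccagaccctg
Ctsf, plus strand, chr19:4855059-4855118: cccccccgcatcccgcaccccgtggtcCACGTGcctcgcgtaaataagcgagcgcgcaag
Counted from the start, the cores begin at -245 and -98 in Ctsd, at -12 and 6 in Ctsa, at -236 in Ctsl and at -79 in Ctsf. The Ctsa window belongs to the second of its listed starts, and the window of the first start holds no match. The printed Ctsa and Ctsl stretches both lie inside the annotated span of their gene, chr2:164832872-164841032 and chr13:64361890-64370772, in front of an internal start.

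Ctsd encodes cathepsin D, the main aspartic protease of the lysosome. It stood at 3006, 5772 and 2100 RPM in NC1 through NC3, beside 15565, 17379, 9468 and 11594 RPM in HC1 through HC4. The lowest hypercapnia library, HC3, lay above the highest normocapnia library, NC2, and HC1 and HC2 were the highest of all. Group means were 3626 ± 1912 RPM and 13501 ± 3615 RPM (SD), a log2 fold change of 1.98 (SE 0.41, 95% interval 0.97 to 3.0, adjusted p = 0.712 in limma). Between 30511 and 363648 reads stand behind these values, so that counting error is small beside the spread between libraries. The call held under all 15 alternatives, with log2 fold changes from 1.66 without NC3 to 2.38 without NC2.

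Ctsb encodes cathepsin B, a cysteine protease that trims dipeptides from the carboxyl end of proteins and also cuts inside them. Its values were 3547, 5768 and 2030 RPM in NC1 through NC3, beside 12103, 11710, 7799 and 8147 RPM in HC1 through HC4. The libraries followed nearly the order of Ctsd, with NC3 lowest and HC1 and HC2 exchanging the top places. The log2 fold change was 1.49 (SE 0.39, 95% interval 0.51 to 2.48, adjusted p = 0.836 in limma), and group means were 3781 ± 1880 RPM and 9940 ± 2281 RPM (SD). It kept its call in each of the 15 alternatives as well, from 1.11 without NC3 to 1.86 without NC2.

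**Figure D2:**
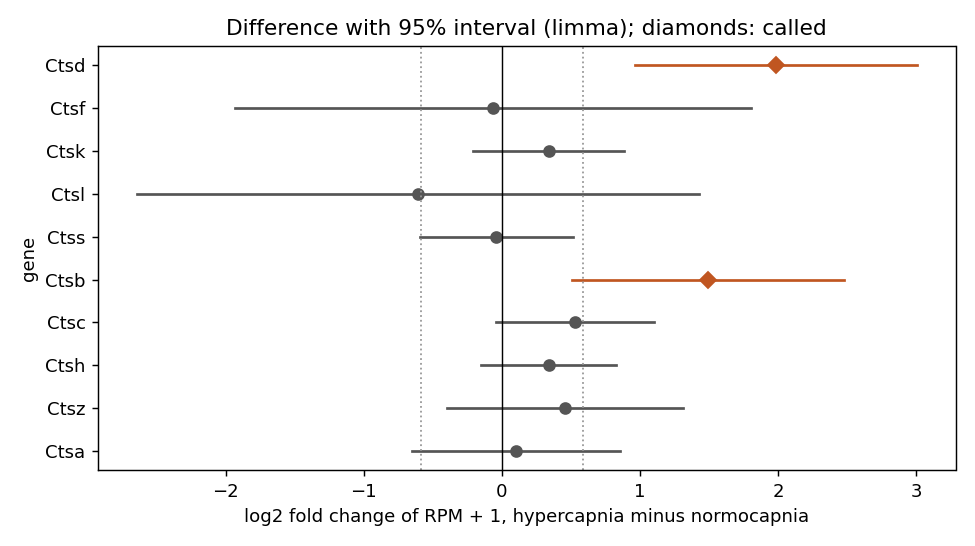
Log2 fold change of each member on the log2(RPM + 1) scale, hypercapnia minus normocapnia, with its 95% interval from limma. Dotted lines mark the 1.5-fold threshold and diamonds the called genes Ctsd (1.98) and Ctsb (1.49), whose intervals lie above 0, while those of the other 8 members include it.

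The remaining exopeptidases were higher on average in hypercapnia without passing the test. Ctsc encodes dipeptidyl peptidase 1, which activates the granule proteases of immune cells. It was at 507, 661 and 583 RPM in normocapnia and at 1093, 997, 712 and 635 RPM in hypercapnia, so that HC4 alone fell within the normocapnia range. The log2 fold change was 0.53 (SE 0.23, 95% interval -0.04 to 1.10, adjusted p = 0.915 in limma). It was called with quantile normalization (0.61) and without HC4 (0.66), and in none of the other 13 alternatives.
Ctsz, a carboxypeptidase that removes single residues, was at 140, 238 and 165 RPM in normocapnia and at 332, 333, 179 and 176 RPM in hypercapnia. HC1 and HC2 lay above all normocapnia libraries, and HC3 and HC4 lay below NC2. The difference was 0.46 (SE 0.34, 95% interval -0.40 to 1.32).
Ctsh, an aminopeptidase, had 121, 154 and 121 RPM against 187, 210, 145 and 133 RPM. The same pair of hypercapnia libraries was above the normocapnia range and the other pair within it (log2 fold change 0.34, SE 0.20, 95% interval -0.15 to 0.83). Ctsz and Ctsh were called in 0 of the 15 alternatives and were above 0 in each of them.

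Among the cysteine endopeptidases, Ctsl varied most. Cathepsin L is a strong general protease of the lysosome and, in autophagy, of the autophagosome's contents. It stood at 980, 2492 and 9997 RPM in NC1 through NC3, beside 2341, 2630, 1471 and 1459 RPM in HC1 through HC4. NC3 was 10.2-fold above NC1, while the hypercapnia libraries spanned 1.80-fold and lay inside the normocapnia range. The log2 fold change was -0.61 (SE 0.81, 95% interval -2.64 to 1.43). Without NC3 it turned to 0.29, and without NC1 it was -1.39. DESeq2 called Ctsl lower (-1.62, with an adjusted p of 0.519), and edgeR did not (-1.56).
Ctss, cathepsin S, which cuts the invariant chain in antigen-presenting cells, had the narrowest range in RPM of the 4 within each group, 1.80-fold in normocapnia and 1.26-fold in hypercapnia. It was at 1077, 1941 and 1692 RPM in normocapnia and at 1593, 1652, 1395 and 1316 RPM in hypercapnia. All hypercapnia libraries lay inside the normocapnia range, and the log2 fold change was -0.04 (SE 0.22, 95% interval -0.60 to 0.52). Its sign turned under 5 of the 15 alternatives.
Ctsf was low, at 20.8, 11.7 and 2.34 RPM against 4.02, 7.19, 12.4 and 12.8 RPM. NC1 and NC3 were the highest and lowest libraries (log2 fold change -0.06, SE 0.75, 95% interval -1.93 to 1.81), and the difference was 0.52 without NC1 and -0.84 without NC3.
Ctsk, the collagen-degrading cathepsin of osteoclasts, was the lowest member, at 1.87, 2.18 and 0.96 RPM against 1.97, 1.76, 2.69 and 2.98 RPM. These values rest on 14 to 51 reads per library, and at this depth the groups overlapped (log2 fold change 0.34, SE 0.22, 95% interval -0.21 to 0.89).

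Ctsa encodes cathepsin A, a serine carboxypeptidase that also shields beta-galactosidase and neuraminidase in a complex. It was at 519, 1012 and 973 RPM in normocapnia and at 970, 1082, 749 and 689 RPM in hypercapnia. NC1 was the lowest library and HC2 the highest, with the others mixed. The log2 fold change was 0.10 (SE 0.30, 95% interval -0.65 to 0.86), and it fell below 0 with median-of-ratios scaling (-0.04), in edgeR (-0.12), in DESeq2 (-0.17) and without NC1 (-0.21) or HC2 (-0.01).

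**Figure D3:**
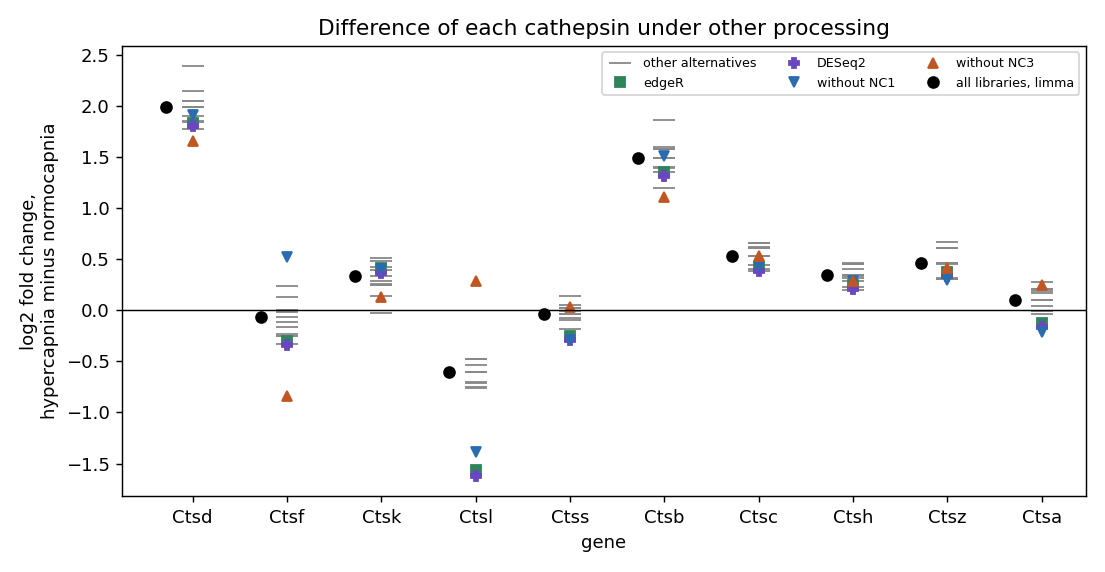
Log2 fold change of each member (hypercapnia minus normocapnia) with limma on all libraries, as black circles, beside 15 alternatives. Ctsd stays between 1.66 and 2.38 and Ctsb between 1.11 and 1.86, while Ctsl runs from -1.62 in DESeq2 to 0.29 without NC3 and Ctsf from -0.84 to 0.52.

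Summed over the 10 members, cathepsin amplicons took 0.992%, 1.81% and 1.77% of the reads in NC1 through NC3, beside 3.42%, 3.60%, 2.19% and 2.42% in HC1 through HC4. Ctsd and Ctsb together made up 0.655%, 1.15% and 0.413% of normocapnia libraries and 2.77%, 2.91%, 1.73% and 1.97% of hypercapnia libraries. The sum of NC3 was thus carried by Ctsl, and without Ctsl it was 7668 RPM, the lowest of the 7. HC2 held the highest value of 4 members and HC1 of 2, while NC1 was lowest for 6 members and NC3 for 4.

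Ratios of amplicons within a library do not depend on how the library was scaled, and were looked at after the values had been seen. The ratio of Ctsd to Ctsb was 0.848, 1.001 and 1.03 in NC1 through NC3, beside 1.29, 1.48, 1.21 and 1.42 in HC1 through HC4, so that the hypercapnia libraries were all above the normocapnia libraries by this measure too. Ctsd over Ctss was 2.79, 2.97 and 1.24 in normocapnia and 9.77, 10.5, 6.78 and 8.81 in hypercapnia. Ctsb over Ctss went the same way, at 3.29, 2.97 and 1.20 against 7.60, 7.09, 5.59 and 6.19. For Ctsd over Ctsl the hypercapnia libraries lay close together, from 6.44 to 7.95, above 3.07, 2.32 and 0.210 in NC1 to NC3. These ratios were given no test, since they were chosen for the members that had moved.

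Macrophages are rich in cathepsins, so their markers are given beside these values. Of the 14 macrophage genes, 2 were called higher, Adgre1 and Aif1, and 0 lower, where 1.43% of all genes and 2.66% of those at 1 RPM or more were called higher, and the summed level overlapped between the groups. In log2 fold change, 9 of the 14 were above 0 and 5 below (median 0.31), the 5 being Tyrobp (-0.38), Csf1r (-0.14), Itgam (-0.12), Mertk (-0.05) and Lyz2 (-0.01). With the other scalings and the count models, 7 to 11 were above 0 and 3 to 6 below. Adgre1, which encodes the macrophage surface protein F4/80, was at 109, 149 and 70.5 RPM in normocapnia and at 392, 429, 151 and 184 RPM in hypercapnia (log2 fold change 1.31, SE 0.49). From lowest to highest, its 7 libraries stood in the same order as those of Ctsd. Aif1, a cytoskeletal protein of macrophages, was at 115, 127 and 67.5 RPM against 319, 343, 164 and 138 RPM. Adgre1 lost its call in 5 and Aif1 in 6 of the 15 alternatives, at log2 fold changes both above and below those with all libraries. The lost calls of Adgre1 were those with median-of-ratios scaling (1.17) and without NC1 (1.34), NC3 (1.03), HC1 (1.12) or HC2 (1.08). For Aif1 they were those with median-of-ratios scaling (1.01) and without NC1 (1.26), NC2 (1.33), NC3 (0.88), HC1 (0.98) or HC2 (0.95). The 2 most abundant macrophage genes, Lyz2 (8354 to 29108 RPM) and Cd68 (729 to 2185 RPM), were lowest in NC1 and highest in NC3 and HC2, and their log2 fold changes of -0.01 and 0.59 did not pass the test. C1qa was at or below 0.45 RPM in every library, although C1qb reached 1061 RPM.
Relative to Adgre1, Ctsd was 27.6, 38.7 and 29.8 in normocapnia and 39.7, 40.5, 62.5 and 63.1 in hypercapnia, where HC1 exceeded NC2 by a small margin. For Ctsb the same ratio overlapped, with 32.5, 38.7 and 28.8 against 30.9, 27.3, 51.5 and 44.3. Relative to the sum of all 14 genes the groups were apart for both, at 0.220, 0.231 and 0.0558 against 0.581, 0.748, 0.440 and 0.533 for Ctsd and at 0.054 to 0.26 against 0.362 to 0.504 for Ctsb. The part of macrophage number or state in the rise of Ctsd and Ctsb was not tested.

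**Figure D4:**
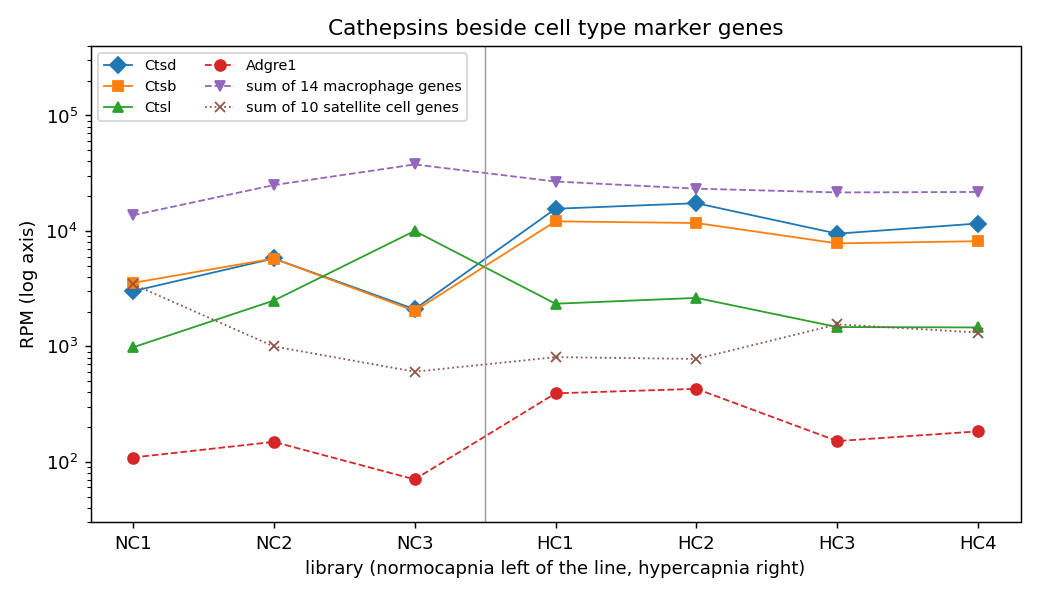
RPM on a log axis of Ctsd, Ctsb and Ctsl in each library beside Adgre1 and the summed macrophage and satellite cell genes. Ctsd, Ctsb and Adgre1 are lowest in NC3 (2100, 2030 and 70.5 RPM) where Ctsl and the macrophage sum are highest, and the satellite cell sum is highest in NC1 at 3463 RPM. Of the macrophage sum of NC3, 37626 RPM, Lyz2 makes up 29108 RPM.

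**Figure D5:**
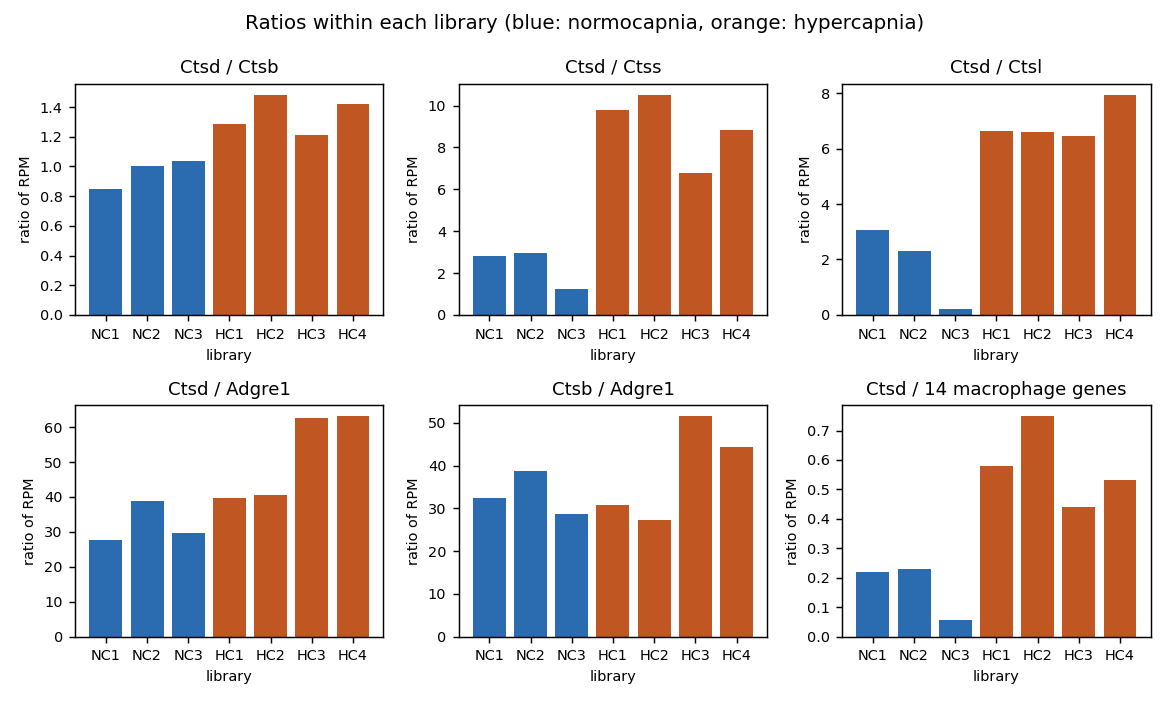
Ratios of RPM within each library, with bars from 0, blue for normocapnia and orange for hypercapnia. Ctsd over Ctsb, Ctss, Ctsl, Adgre1 and the macrophage sum separates the groups, with the smallest relative gap for Adgre1 (38.7 in NC2 against 39.7 in HC1), whereas Ctsb over Adgre1 overlaps.

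Of the other cell types, 0 markers were called in either direction. The summed neutrophil genes were 65.7 to 222 RPM in normocapnia and 78.5 to 296 RPM in hypercapnia, led by Csf3r and S100a9. Endothelial genes, led by Pecam1 and Cdh5, were 82.0 to 237 RPM and 57.7 to 564 RPM, with HC3 and HC4 highest and HC1 and HC2 lowest. Fibro-adipogenic genes, led by Dcn and Col3a1, summed to 389 and 314 RPM in HC1 and HC2 and to 1257 and 1594 RPM in HC3 and HC4. Of the 5 genes, 4 were lower in HC1 and HC2 than in HC3 and HC4, with the largest step in RPM for Dcn (188 and 169 against 1050 and 1356 RPM), and Col3a1 was higher (144 and 96.7 against 58.6 and 64.5 RPM). Ctsd, Ctsb, Ctsl, Ctsc, Ctsh, Ctsz, Ctss and Ctsa were all higher in HC1 and HC2 than in HC3 and HC4, and Ctsf and Ctsk were lower. Myofiber genes, led by Tnnt3 and Mylpf, ran from 307 to 4911 RPM in normocapnia and 397 to 2462 RPM in hypercapnia. Dendritic cell genes, led by Ccr7 and Zbtb46, summed to at most 89.3 RPM, and lymphocyte genes, led by Ms4a1 and Nkg7, to at most 4.15 RPM. Their part in the cathepsin values was not tested.

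Genes around the 10 members were taken as a list of 43, of which 41 are in the table and 28 average 1 RPM or more. The list holds other cathepsins, other lysosomal peptidases, partners of cathepsin A, inhibitors, sorting genes and transcription factors of lysosomal genes. Limma called 4 of the 41 higher and 0 lower, where 1.43% of all genes and 2.66% of those at 1 RPM or more were called higher. Their median log2 fold change was 0.19, above the 0.02 of all genes. The 0.19 includes listed genes below 1 RPM, so the 0.16 of all genes at 1 RPM or more is not a matched value.
The other cathepsins of the mouse were scarce. Of 13, many of them known from the placenta, Ctsq, Ctsr, Cts3 and Cts7 were at 0 in every library and none was called. Ctso led them in level, with 15.7, 27.8 and 13.5 RPM in normocapnia beside 30.9, 38.4, 20.1 and 17.5 RPM in hypercapnia, with overlapping groups (log2 fold change 0.47, SE 0.37). It was called higher with the replicate block (0.64) and in none of the other alternatives.
Of 6 other lysosomal peptidases, Dpp7 and Scpep1 were called higher. Dpp7, which removes dipeptides ending in proline or alanine, was at 14.8, 27.3 and 24.0 RPM against 78.3, 69.9, 39.4 and 39.0 RPM, a log2 fold change of 1.30 (SE 0.36), and it kept the call in 12 of 15 alternatives, with losses after median-of-ratios scaling (1.15), quantile normalization (1.23) and the replicate block (1.45). Scpep1, a serine carboxypeptidase related to cathepsin A, was at 135, 244 and 192 RPM against 340, 410, 264 and 267 RPM (0.76, SE 0.26), and kept it in 8. It lost the call in edgeR (0.60), in DESeq2 (0.56), after median-of-ratios scaling (0.62), and without NC1 (0.54), NC3 (0.79), HC1 (0.73) or HC2 (0.64).
The partners of cathepsin A did not pass the test, and the more abundant, Glb1 (beta-galactosidase), was at 66.6, 48.5 and 109 RPM against 103, 117, 80.0 and 73.6 RPM (0.37, SE 0.32). Without NC3 it was called (0.68).
Of the 10 inhibitors in the table, Cstb and Ctla2b were called higher. Cystatin B, the product of Cstb, blocks cysteine cathepsins in the cytosol. It was at 461, 951 and 668 RPM against 1420, 1440, 973 and 1046 RPM (0.85, SE 0.29), and kept the call in 7 of 15 alternatives. The losses were those with median-of-ratios scaling (0.71), edgeR (0.66), DESeq2 (0.62) and the replicate block (0.92), and those without NC1 (0.59), NC3 (0.86), HC1 (0.77) or HC2 (0.77). Ctla2b, which resembles the propeptide of a cysteine cathepsin, was at 13.4, 7.01 and 2.20 RPM against 55.0, 50.5, 22.9 and 34.2 RPM (2.46, SE 0.59), called in all 15. Stfa2 and Stfa2l1 are not in the table, and Csta1 was at 0 in every library.
None of 6 sorting genes was called. M6pr, the cation-dependent mannose 6-phosphate receptor, was at 187, 304 and 37.3 RPM against 312, 252, 141 and 152 RPM (0.65, SE 0.79), with NC3 far below the rest. Without NC3 its difference was -0.24.
The 4 transcription factors of the MiT family, to which TFEB belongs, had log2 fold changes from -0.60 to -0.38 (median -0.46), and none was called. All 4 stayed below 0 with either other scaling and in both count models, with medians from -0.96 to -0.46. The groups overlapped for all 4. Of all libraries, NC1 was the lowest and NC3 the highest for Tfeb, Mitf and Tfec, while Tfe3 was lowest in HC4 and highest in NC2. Results with single libraries left out are given for Tfec only. Tfec had the highest mean, with 21.9, 136 and 167 RPM beside 79.6, 71.3, 47.8 and 46.2 RPM (-0.42, SE 0.76), within the span of normocapnia. It was called lower without NC1 (-1.33) and turned to 0.11 without NC3.

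For the 3 members with the highest means, the genes most like them were sought among 8220 non-members that averaged 10 RPM or more, by the Pearson correlation of log2(RPM + 1) over the 7 libraries. The points are the same 7 libraries for every gene, and the correlations were picked as the highest of many and given no test. Ctsd was closest to Asna1 (0.995), a factor that delivers tail-anchored proteins to the endoplasmic reticulum, then to Trim30c (0.992) and Arhgap4 (0.989). Ctsb was also closest to Asna1 (0.995), followed by Atp6v0b (0.995), a membrane subunit of the proton pump that acidifies lysosomes, and Gusb (0.995), the lysosomal beta-glucuronidase. Asna1 was at 151, 195 and 122 RPM against 310, 306, 243 and 246 RPM, and Gusb at 66.1, 97.9 and 49.8 RPM against 160, 158, 112 and 113 RPM. Ctsl stood with other genes, Cltc (0.995), the clathrin heavy chain, St6gal1 (0.988), a sialyltransferase of the Golgi, and Nabp1 (0.988), a single-stranded DNA binding protein. Each of these peaked in NC3 as Ctsl did, Cltc at 1897 RPM against 424 to 790 RPM in the other libraries. Within the family, Ctsd and Ctsb were the closest pair (0.987 over 7 libraries), and Ctsl and Ctsf the most opposed (-0.885).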

How the data were processed

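RNA of sorted Pax7-GFP cells was measured in 3 normocapnia and 4 hypercapnia libraries made by the authors with an Ion AmpliSeq mouse transcriptome panel on an Ion GeneStudio S5. The deposited values are RPM, reads per amplicon per 1000000 assigned reads, and the authors tested them with the Transcriptome Analysis Console. The sources used here give no aligner, amplicon position or build. RPM values are whole multiples of 1 read, and whole reads were recovered for 100% of values (tolerance 0.05 reads). Library pairs differed by 22.5 to 475.5 in chi-square per degree of freedom, and none was merged.

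limma 3.58.1 (R 4.3.3) was fitted to log2(RPM + 1) of all 23930 genes, unfiltered, after tests on simulated data. Fold changes on this scale understate those of low genes. Alternatives were pseudocounts of 0.1 and 5 RPM, a filter at a mean of 1 RPM, 2 other scalings, edgeR 4.0.16 (quasi-likelihood, TMM) and DESeq2 1.42.0 on whole reads, each library left out, and the replicate number as a block. Promoters came from RefSeq GRCm38.p6 windows. The members and lists were chosen with earlier results of these data known. Named were all members, called pathway genes or the most abundant of a role, the 2 most abundant markers of each cell type, and the genes most like the 3 most abundant members. Pax7 and the macrophage genes other than Lyz2 and Cd68 were named after their values were seen, and the alternatives run on pathway genes, Adgre1 and Aif1 were chosen then too.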

Additional observations from a re-analysis of the deposited data

How the results depend on the processing

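Of the 10 members, Ctsd and Ctsb stayed called higher under each of the 15 alternatives. The count of cathepsins called higher ran from 2 to 3 with single libraries left out, and the count called lower was 0 in each of those and 1 in DESeq2, where it was Ctsl. The replicate numbers in the labels were used as a block, in which HC4 has no partner and drops out of the comparison, so that the estimates equal those without HC4. With this replicate block 2 of the 10 members were called higher and 0 lower, with 351 and 247 genes in all. Ctso, a cathepsin outside the 10 members, was called higher with the block (0.64) and not in the main fit. Deviations of libraries with the same number correlated at -0.35, 0.50 and -0.04, so the numbers are not taken to pair the samples. Differences that missed the threshold turned sign as follows. With quantile normalization, Ctsk was at -0.029 and Ctss at 0.049. With the block, Ctss was at 0.018. With median-of-ratios scaling, edgeR and DESeq2, Ctsa was at -0.042, -0.12 and -0.17. With single libraries left out, Ctsf ran from -0.84 (without NC3) to 0.52 (without NC1), Ctsl from -1.39 (without NC1) to 0.29 (without NC3), Ctss from -0.29 (without NC1) to 0.13 (without NC2), Ctsa from -0.21 (without NC1) to 0.27 (without NC2), M6pr from -0.24 (without NC3) to 1.26 (without NC2) and Tfec from -1.33 (without NC1) to 0.11 (without NC3). Over all genes, 343 were called higher and 272 lower, against 519 and 785 in DESeq2, 294 and 508 in edgeR, 268 and 170 with a pseudocount of 5 RPM, and 216 to 1495 and 154 to 534 with single libraries left out, the largest counts of higher genes being those without NC1 (1495) and NC2 (671). The causes were not tested. The depth behind Ctsk was 14 to 51 reads per library.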
